A study of Mus musculus with 6 samples.

Results

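The G2/M and mitotic spindle genes are the genes a cell switches on late in its cycle to enter mitosis, attach and part its chromosomes and divide. A list of 49 such genes was followed in GC1-Spg cells, which are a mouse line derived from spermatogonia, by taking every probe set of the array that was paired with exactly 1 gene symbol on the list. That gave 115 probe sets for 48 of the 49 genes, among 34945 probe sets paired with 1 gene. Of the 115, 105 were bright enough to be tested, and they covered the same 48 genes. No probe set paired with Ccnb1, the gene of cyclin B1, was found in the probe table used here. The control cells received 100 nM of a scrambled siRNA and the other cells 100 nM of siRNA against mrhl, a noncoding RNA, and RNA was taken 44 h after transfection. Each group held 3 biological replicates, so each gene had 6 values. From their range all were taken to be on the log2 scale, where a difference of 1 is a 2-fold difference. Both groups were transfected, and untransfected cells were not analysed here.

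Entry into mitosis is driven by the kinase Cdk1 bound to cyclin A or B, which phosphatases of the Cdc25 family activate. The transcription factor FoxM1, working with the MuvB complex and B-Myb, raises transcription of most of these genes in G2. The spindle checkpoint then holds the anaphase-promoting complex until every kinetochore is attached, after which Cdc20 directs the complex to cyclin B and securin, separase cuts cohesin, and the cell divides. Because these genes peak in G2 and mitosis, their summed RNA level is widely used to follow how many cells of a population are cycling. In RNA from a whole culture, fewer cells in G2 or mitosis and less RNA per such cell cannot be told apart.

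The silenced RNA itself was not read, since 0 entries of the probe table name mrhl. Array medians lay between 5.19 and 5.30. Of the spermatogonial markers looked for, 11 were named in the probe table and 8 were bright enough to be tested. The germ cell genes Ddx4 and Dazl, at control means of 2.31 and 3.31, lay under the 3.62 that a probe set's mean had to reach to be tested. The fibroblast and myoid markers Vim and Col1a1 had control means of 12.92 and 12.19, while Thy1 of that list, at 2.60, was also too dim to be tested. Of the 6 genes of that list 5 stood above 5.23, the level of the median probe set. So did 3 of the 11 spermatogonial markers, namely Uchl1, Id4 and Gfra1 at control means of 7.49, 6.38 and 5.93. The same held for 3 of 6 Sertoli markers, with Wt1 highest at 10.69, and for 1 of 3 Leydig markers. All 48 mitotic genes lay above it too, with means over the 6 arrays from 5.67 to 11.83. Below, a gene is read through its brightest tested probe set, values follow replicate numbers 1, 2 and 3, and a difference is always mrhl siRNA minus scrambled siRNA.

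No mitotic gene passed the test between the groups. Of the 48 genes, 35 had a negative and 13 a positive difference, and the median was -0.099 on the log2 scale. Over all 14885 tested genes 57.9% were negative and the median was -0.040. After quantile normalization 35 of 48 were again negative with a median of -0.069, against 53.1% and -0.016 over all genes. The differences ran from -0.67 for the phosphatase gene Cdc14a to 0.29 for Foxm1, and 1 of 48 genes, Cdc14a, differed by over 1.5-fold. None of the 105 probe sets passed an adjusted p of 0.05 (limma, smallest adjusted p = 0.965), against 0.00% of all 33778 probe sets. With the replicate number as a block none passed either (limma, smallest adjusted p among them 0.487), again against 0.00% of all probe sets. The 95% interval of the difference, read through the brightest probe set, lay between -1 and 1 for 47 of the 48 genes. For each of those 47, read singly, a 2-fold difference in either direction thus lay outside the interval of that probe set. Dimmer tested probe sets of some of these genes had intervals that passed these bounds, such as -0.82 to 2.41 in Smc4 and -1.07 to 2.33 in Cenpe.

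Unadjusted counts were read against the background too. Without the block, 1 of 105 probe sets had an unadjusted p under 0.05 with a negative difference and 0 with a positive difference (limma), against 2.18% and 1.26% of all probe sets. With the block these counts were 5 and 0 (limma), against 6.23% and 3.87%. The values of both groups did not overlap in 4 of 48 genes. In Cdc14a, Mad2l1 and Smc4 all 3 mrhl siRNA values lay below all controls, where 6.13% of all tested genes did so, and in Ube2c they lay above, where 2.30% did so. The count of 4 depended on single arrays: it was 22 without scrambled siRNA replicate 1 (26.7% of all genes), 8 without scrambled siRNA replicate 3 (14.2%), 11 without mrhl siRNA replicate 1 (15.3%) and 11 without mrhl siRNA replicate 3 (28.1%). Leaving out replicate 2 of either group alone changed the count less than any of these. Fewer arrays make groups overlap less often, and the share over all genes was 8.44% with all 6 arrays.

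**Figure D1:**
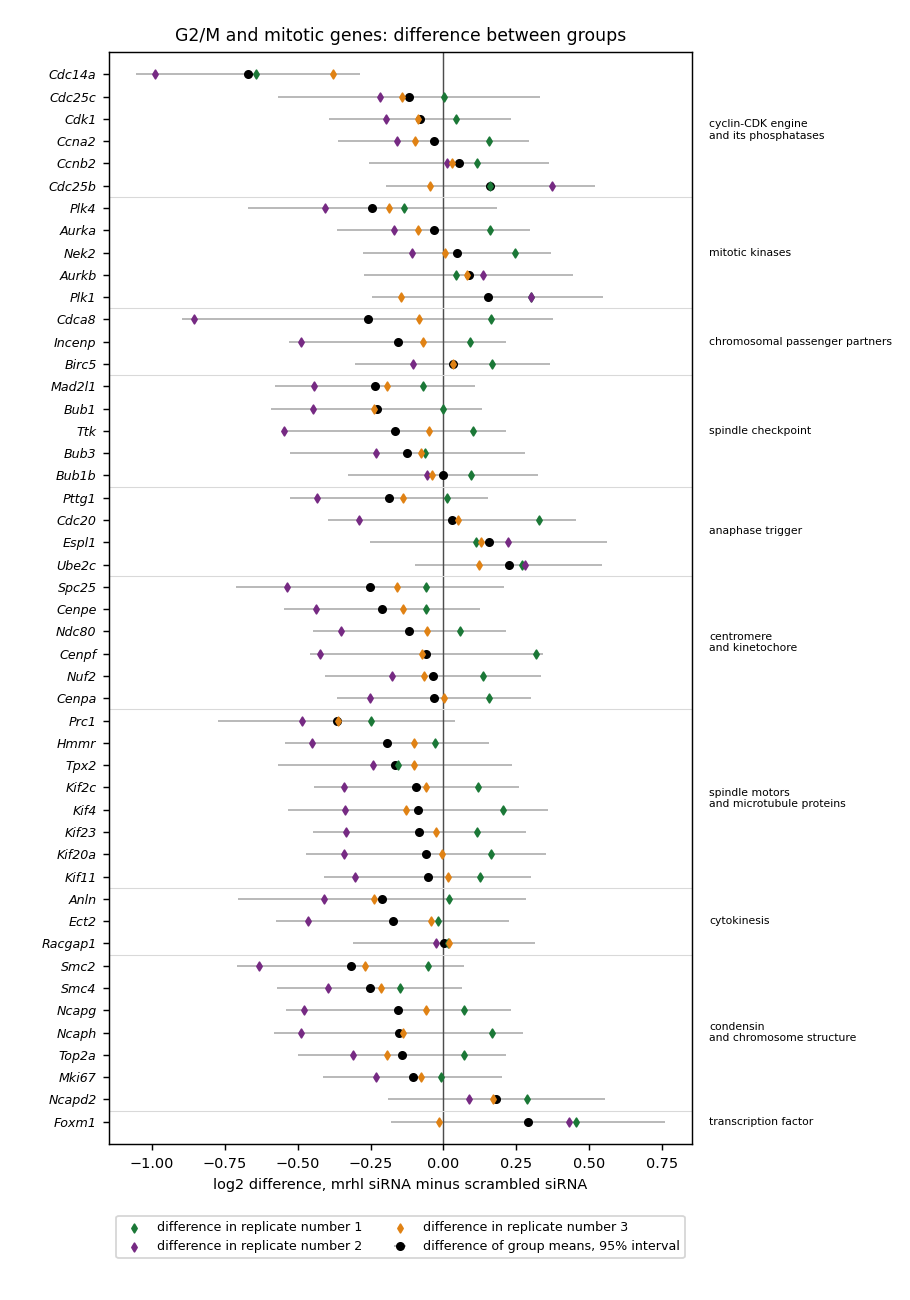
Differences of the 48 G2/M and mitotic genes, grouped by role. The x axis gives the log2 difference, mrhl siRNA minus scrambled siRNA; black points are differences of the group means (n = 3 each) with their 95% interval from limma, and diamonds are the differences within replicate numbers 1 (green), 2 (purple) and 3 (orange). Most purple diamonds lie left of 0 and most green ones right of it.

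Equal replicate numbers were compared next, since the groups share them, though the titles do not say that they were paired. Over the mitotic probe sets, deviations from group means correlated at 0.75, -0.19 and 0.73 within numbers 1, 2 and 3. Scrambled siRNA replicate 2 correlated at 0.43 with mrhl siRNA replicate 3, so the pairing of number 2 is uncertain. In number 1 the mitotic genes had a median difference of 0.094, and 14 of 48 were negative, while over all genes the median was -0.024 and 54.8% were negative. In number 2 the median was -0.32 and 40 of 48 were negative, against -0.079 and 58.1% over all genes. In number 3 the median was -0.076 with 37 of 48 negative, against -0.026 and 55.7%. The direction in number 1 was thus opposite to that in the others. Lower values in all 3 numbers were found for 14 of 48 genes (29.2%), where 26.1% of all genes did so, and higher values in all 3 for 5 of 48 (10.4%), where 14.5% did so. Over the numbers left without scrambled siRNA replicate 1 or without mrhl siRNA replicate 1, 34 of 48 genes were lower in both, against 37.7% and 37.8% of all genes. Without both arrays of number 2 the median over the mitotic genes was 0.020 with 19 of 48 negative, and over all genes it was -0.024 with 56.0% negative. Without both arrays of number 1 the median was -0.18 with 40 of 48 negative, against -0.049 and 58.1% over all genes. The sign of the list's median therefore depended on number 2.

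**Figure D2:**
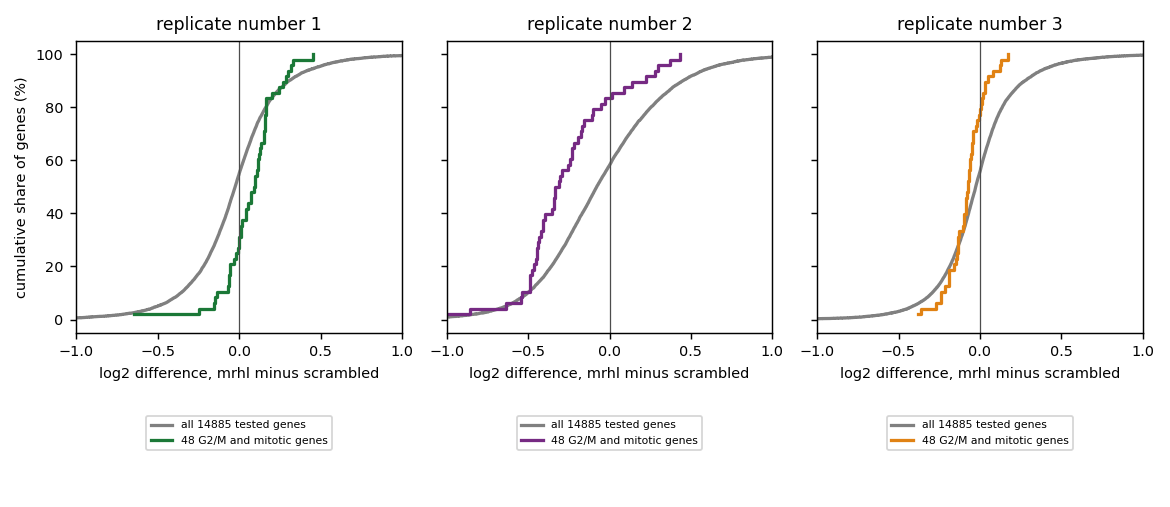
Cumulative share of genes (y axis, percent) by log2 difference (x axis, mrhl siRNA minus scrambled siRNA; shown from -1 to 1) within replicate numbers 1, 2 and 3. Coloured lines are the 48 G2/M and mitotic genes and grey lines all 14885 tested genes. The coloured line lies to the right of the grey line through most of number 1 and to its left through most of number 2, with medians of 0.094 and -0.32.

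The mitotic genes were then read array by array. Taken as deviations from each gene's own 6-array mean, the mitotic genes averaged -0.056, 0.13 and 0.064 on the control arrays and 0.013, -0.13 and -0.018 on the mrhl siRNA arrays. Control replicate 2 gave the highest of the 6 values in 25 of 48 genes, where it did so in 20.7% of all tested genes. The lowest value came from mrhl siRNA replicate 2 in 23 of 48 genes, against 26.7% of all genes. Without control replicate 2 the median difference was -0.042 with 28 of 48 negative, and without mrhl siRNA replicate 2 it was -0.064 with 32 of 48 negative. The median thus stayed negative when either array was left out alone, though over all tested genes it was negative too, at -0.040 with all 6 arrays. Without control replicate 1 the median of the mitotic genes was -0.15 with 38 of 48 negative. A control probe set for the 3' part of 18S ribosomal RNA read 2.99, 7.83 and 6.48 after scrambled siRNA and 3.57, 3.00 and 6.76 after mrhl siRNA. Its highest value fell on the array with the highest mitotic values, as did those of the 5' and middle 18S probe sets, at 6.04 and 5.63. Its second highest, 6.76, fell on mrhl siRNA replicate 3, where the mitotic genes averaged -0.018. The 3' minus 5' differences ran from -0.20 to -0.082 for Gapdh and from 0.38 to 0.63 for beta-actin. The part of these controls in the result was not tested.

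**Figure D3:**
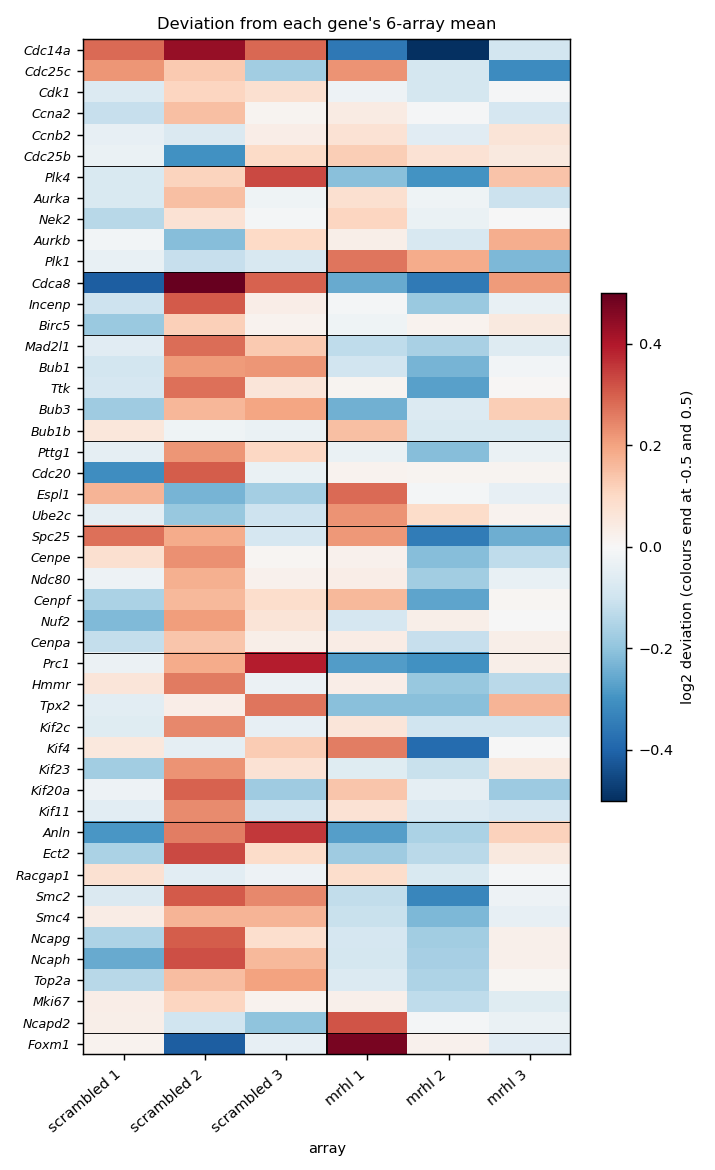
Log2 deviation of each of the 48 G2/M and mitotic genes (rows, grouped by role) from its own mean over 6 arrays, for the 3 scrambled siRNA and 3 mrhl siRNA arrays (columns); red is above and blue below the mean, and colours end at -0.5 and 0.5. The column of scrambled siRNA replicate 2 is mostly red (37 of 48 genes above their mean) and that of mrhl siRNA replicate 2 mostly blue (7 of 48 above).

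Among the cyclins, Cdk1 and its phosphatases, 4 of 6 measured genes had a negative difference, with a median of -0.057. Cdk1, the kinase that drives entry into mitosis, read 11.27, 11.44 and 11.42 after scrambled siRNA and 11.31, 11.25 and 11.33 after mrhl siRNA. These values overlapped, and the difference was -0.081 (SE 0.134), 95% interval -0.39 to 0.23. Its partners Ccna2 and Ccnb2, the genes of cyclins A2 and B2, had -0.034 (SE 0.141) and 0.053 (SE 0.132). The other Ccna2 probe set gave 0.077 (SE 0.136) and was higher in all 3 numbers. The activating phosphatase genes Cdc25b and Cdc25c had 0.16 (SE 0.154) and -0.12 (SE 0.192), with groups that overlapped. The other tested Cdc25c probe set gave 0.0047 (SE 0.156), of opposite sign.

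Cdc14a was the lowest member. It encodes a dual-specificity phosphatase of the family that reverses Cdk1 phosphorylation in yeast. Its brightest probe set read 5.96, 6.11 and 5.96 after scrambled siRNA and 5.31, 5.12 and 5.58 after mrhl siRNA. All mrhl siRNA values lay below all controls, with differences of -0.64, -0.99 and -0.38 in numbers 1, 2 and 3. The difference was -0.67 (SE 0.164), 95% interval -1.06 to -0.29. After adjustment it missed the threshold (limma, adjusted p = 0.965, and 0.487 with the replicate block). Over all alternatives run its adjusted p lay between 0.234 and 1.00. A pair of dimmer Cdc14a probe sets, at control means of 4.88 and 4.50, gave -0.040 (SE 0.175) and 0.12 (SE 0.201). Both were smaller than their SE, so the low values of the brightest probe set were not seen in the other Cdc14a probe sets.

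**Figure D4:**
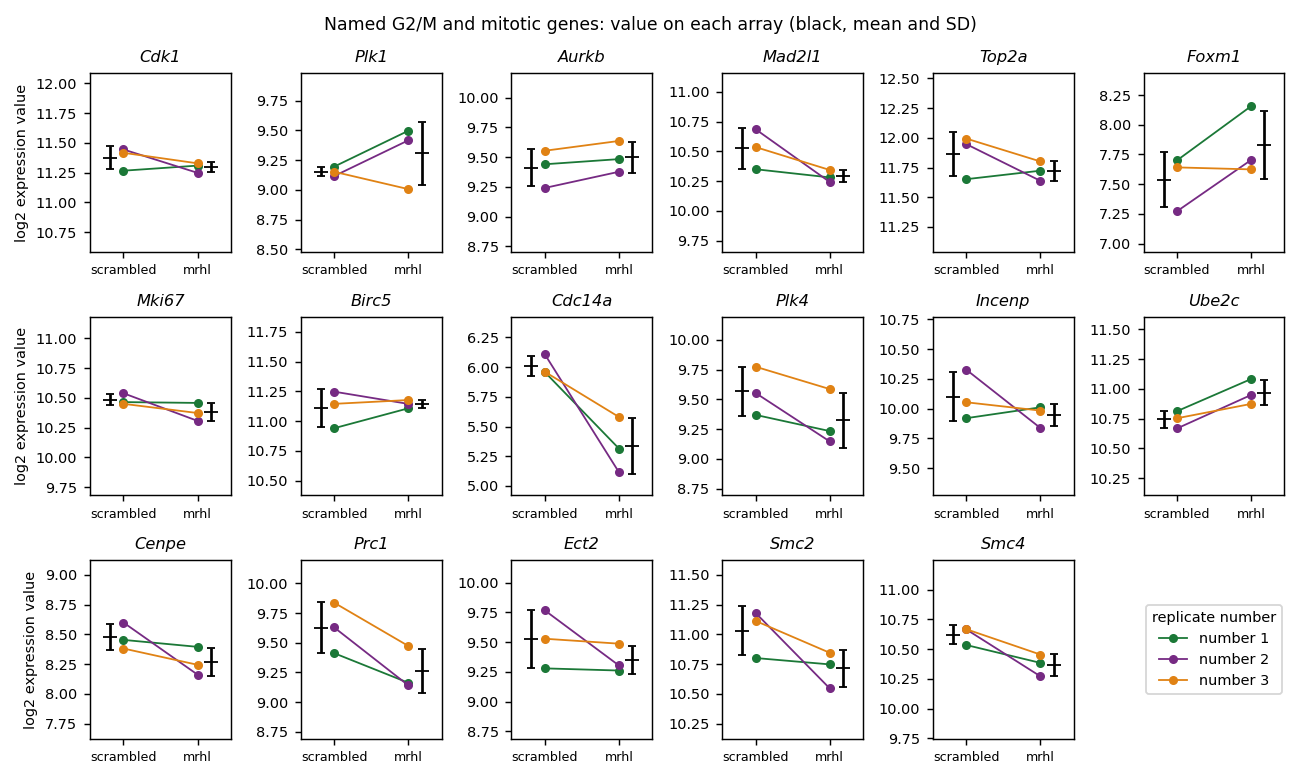
Log2 expression values on each array for 17 G2/M and mitotic genes, with scrambled siRNA on the left and mrhl siRNA on the right of each panel. Lines join arrays of equal replicate number, black bars are group means with SD (n = 3), and every panel spans 1.5 log2 units. Of the 17, the groups do not overlap in Cdc14a, Mad2l1, Smc4 and Ube2c.

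The mitotic kinases lay on both sides of 0, with 2 of 5 negative and a median of 0.048. Plk1, which acts at centrosomes, kinetochores and in cytokinesis, read 9.20, 9.12 and 9.15 after scrambled siRNA and 9.50, 9.42 and 9.01 after mrhl siRNA. Replicates 1 and 2 after mrhl siRNA lay above the controls and replicate 3 below them, and the difference was 0.15 (SE 0.169). Aurkb, the kinase of the chromosomal passenger complex that corrects faulty attachments, read 9.44, 9.24 and 9.55 after scrambled siRNA and 9.48, 9.38 and 9.64 after mrhl siRNA. It was higher in all 3 numbers by small amounts, with a difference of 0.087 (SE 0.153) and overlapping groups. Plk4, which controls centriole duplication, had the smallest p of the 5 and read 9.37, 9.55 and 9.77 after scrambled siRNA and 9.23, 9.15 and 9.59 after mrhl siRNA. Its difference was -0.24 (SE 0.182) with the same sign in all 3 numbers, but the groups overlapped. Aurka, needed for spindle poles, and Nek2, which parts the centrosomes, had -0.033 (SE 0.141) and 0.048 (SE 0.137).

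The partners of Aurkb in the chromosomal passenger complex gave mixed signs, with 2 of 3 negative. Birc5, which encodes survivin, read 10.94, 11.25 and 11.14 after scrambled siRNA and 11.11, 11.14 and 11.18 after mrhl siRNA, a difference of 0.032 (SE 0.143). Its sign turned to negative without scrambled siRNA replicate 1, with -0.053. Incenp, the scaffold of the complex, read 9.92, 10.33 and 10.05 after scrambled siRNA and 10.01, 9.84 and 9.98 after mrhl siRNA. Control replicate 2 stood above the other 5 arrays, and the difference was -0.16 (SE 0.159), while the other 3 tested probe sets of Incenp gave 0.14, 0.12 and 0.38. Cdca8, the gene of borealin, had -0.26 (SE 0.272), with controls spread over 9.21, 10.13 and 9.92.

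Among the 5 spindle checkpoint genes 4 had a negative difference and the median was -0.17. Mad2l1, the gene of the inhibitor that checkpoint signalling loads onto Cdc20, read 10.35, 10.69 and 10.54 after scrambled siRNA and 10.28, 10.24 and 10.34 after mrhl siRNA. Its groups did not overlap, although mrhl siRNA replicate 3 and control replicate 1 nearly touched, and the difference was -0.23 (SE 0.147) (limma, adjusted p = 0.965). The checkpoint kinase genes Bub1 and Ttk had -0.23 (SE 0.154) and -0.17 (SE 0.163), and Bub3, which docks Bub1 at kinetochores, had -0.12 (SE 0.172). Of the 5 tested Bub3 probe sets 4 were negative, and the highest gave 0.020. Bub1b, the gene of BubR1, had equal means, 9.37 ± 0.048 with scrambled and 9.37 ± 0.13 with mrhl siRNA (SD, n = 3), and the difference had a 95% interval -0.33 to 0.33.

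The genes that trigger anaphase had 3 of 4 positive differences, with a median of 0.092. Ube2c, the ubiquitin-conjugating enzyme that works with the anaphase-promoting complex, read 10.81, 10.67 and 10.75 after scrambled siRNA and 11.08, 10.95 and 10.87 after mrhl siRNA. All mrhl siRNA values lay above all controls and the differences within numbers were 0.27, 0.28 and 0.12, yet the difference of 0.22 (SE 0.137) did not pass (limma, adjusted p = 0.965). Espl1, which encodes separase, had 0.16 (SE 0.173) and was higher in all 3 numbers. Cdc20, the activator of the complex, had 0.029 (SE 0.182), and its other tested probe sets gave -0.0055 and 0.10. Pttg1, whose product securin holds separase inactive, had -0.19 (SE 0.145), and its other tested probe sets gave -0.18 and -0.29.

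All 6 centromere and kinetochore genes had negative differences, with a median of -0.088, and 2 of the 6 were lower in all 3 numbers. Cenpe, a kinetochore motor that moves chromosomes to the spindle equator, read 8.45, 8.60 and 8.38 after scrambled siRNA and 8.40, 8.16 and 8.24 after mrhl siRNA. Replicates 2 and 3 after mrhl siRNA lay below every control and replicate 1 did not, and the difference was -0.21 (SE 0.144). Its other tested probe set gave 0.63 (SE 0.727), of opposite sign. The genes of the Ndc80 complex, the main microtubule anchor of the kinetochore, had -0.12 (SE 0.141) for Ndc80, -0.037 (SE 0.158) for Nuf2 and -0.25 (SE 0.196) for Spc25, whose dimmer probe set gave 0.14. Cenpa, the histone variant that marks centromeres, and Cenpf had -0.032 and -0.059, each smaller than its SE. The dimmer tested probe set of Cenpa gave 0.17 (SE 0.168), of opposite sign.

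The 8 spindle motors and microtubule proteins were all negative as well, with a median of -0.090, and in number 1 only 3 of the 8 were negative. Prc1, which bundles the microtubules of the central spindle, had the smallest p of the role and read 9.41, 9.63 and 9.84 after scrambled siRNA and 9.16, 9.14 and 9.47 after mrhl siRNA. The groups overlapped by 1 array on each side, since mrhl siRNA replicate 3 lay above control replicate 1, but within numbers the differences were -0.25, -0.49 and -0.36. The difference of -0.37 (SE 0.174) did not pass (limma, adjusted p = 0.965, and 0.487 with the replicate block; between 0.234 and 1.00 over the alternatives run). The other Prc1 probe set had the same sign, with -0.26 (SE 0.173). Tpx2, which activates Aurka on the spindle, and Hmmr, a spindle assembly factor, had -0.17 (SE 0.172) and -0.19 (SE 0.149). Of the 5 tested Hmmr probe sets 3 were negative, and the highest gave 0.061. The kinesin genes Kif11, Kif20a, Kif23, Kif2c and Kif4, whose products part the spindle poles, build the midzone or shorten microtubules, lay between -0.093 for Kif2c and -0.054 for Kif11, all smaller than their SE. Of the 4 tested Kif2c probe sets 3 were negative, and the highest gave 0.051.

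Of the 3 cytokinesis genes 2 had a negative difference, with a median of -0.17. Ect2, the exchange factor that switches on RhoA at the division plane, had the smallest p without the block, and Anln had the larger difference and the smaller p with it. Ect2 read 9.28, 9.77 and 9.53 after scrambled siRNA and 9.26, 9.30 and 9.49 after mrhl siRNA. Control replicate 2 stood above the rest, and the difference was -0.17 (SE 0.171). Anln, the gene of the contractile ring scaffold anillin, had -0.21 (SE 0.212), and its dimmer probe set -0.40 (SE 0.30) with -0.47, -0.41 and -0.33 within numbers. Racgap1, the partner of Kif23 in the centralspindlin complex, had group means of 10.32 ± 0.067 and 10.32 ± 0.084 (SD, n = 3). Its difference was 0.0021, and its other tested probe set gave -0.012.

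Condensin folds chromosomes for mitosis, and 6 of 7 genes of condensin and chromosome structure had a negative difference, with a median of -0.15. Smc4, a condensin ATPase, read 10.54, 10.67 and 10.67 after scrambled siRNA and 10.38, 10.27 and 10.46 after mrhl siRNA, so its groups did not overlap, and the difference was -0.25 (SE 0.136). Its partner ATPase Smc2 read 10.80, 11.18 and 11.11 after scrambled siRNA and 10.75, 10.55 and 10.85 after mrhl siRNA, with control replicate 1 inside the range of the mrhl siRNA arrays and a difference of -0.32 (SE 0.166). Neither passed (limma, adjusted p = 0.965 for each). Other tested probe sets went both ways, with -0.21 and 0.80 for Smc4 and values from -0.37 to 0.30 for Smc2. The condensin I subunits Ncapg and Ncaph had -0.16 (SE 0.165) and -0.15 (SE 0.183), while Ncapd2, a subunit of the same complex, had 0.18 (SE 0.159) and was higher in all 3 numbers. A second Ncapg probe set had -0.45 (SE 0.259), with -0.35, -0.61 and -0.38 within numbers.

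Top2a and Mki67 are often used as proliferation markers. Top2a, which untangles sister chromatids, read 11.65, 11.95 and 11.99 after scrambled siRNA and 11.72, 11.64 and 11.80 after mrhl siRNA, and Mki67, the gene of the Ki-67 antigen that coats mitotic chromosomes, read 10.46, 10.54 and 10.45 after scrambled siRNA and 10.46, 10.31 and 10.37 after mrhl siRNA. Both sets of groups overlapped. The differences were -0.14 (SE 0.153) with a 95% interval -0.50 to 0.21 and -0.11 (SE 0.132) with a 95% interval -0.41 to 0.20, so in either direction a difference over 1.5-fold in each of these genes lay outside its interval.

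Foxm1, the transcription factor that acts on many of the genes above, had the highest difference of the 48. Its brightest probe set read 7.70, 7.27 and 7.64 after scrambled siRNA and 8.16, 7.70 and 7.62 after mrhl siRNA. Replicate 1 after mrhl siRNA stood above all others and replicate 3 lay close to its control, and the difference was 0.29 (SE 0.201) (limma, adjusted p = 0.965). All 3 tested Foxm1 probe sets were positive, the others at 0.26 (SE 0.188) and 0.15 (SE 0.217), with groups that overlapped.

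Several probe sets were tested for 33 of the 48 genes, which allows a check of each gene within the same arrays. All tested probe sets of a gene had negative differences in 14 of the 33 genes and positive ones in 5, and in the other 14 the signs were mixed. Over the 105 tested probe sets 68 were negative, or 64.8%, against 56.2% of all 33778. The 5 probe sets with an unadjusted p under 0.05 in the blocked fit (limma) belonged to Cdc14a, Prc1, Anln, Ncapg and Smc2, and only for Cdc14a and Prc1 was it the gene's brightest. With each gene read as the mean of its tested probe sets, 31 of 48 genes were negative with a median of -0.059, and 7 genes rather than 14 were lower in all 3 numbers. The shares and medians over all genes given above are those of brightest probe sets, and are no background for this reading.

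**Figure D5:**
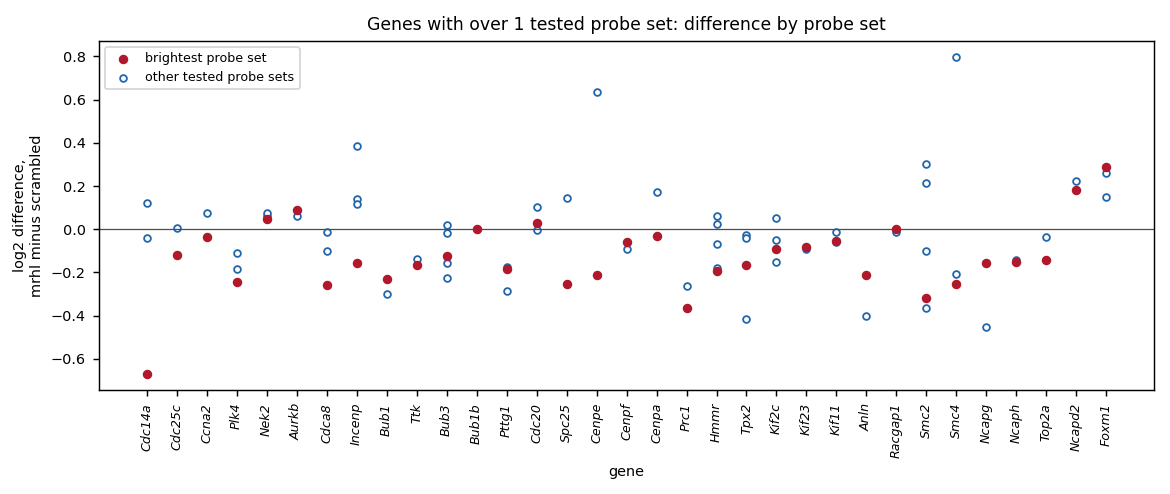
Log2 difference, mrhl siRNA minus scrambled siRNA, of every tested probe set for the 33 G2/M and mitotic genes with over 1 tested probe set (x axis). Red points are the brightest probe set of a gene and open blue points its other probe sets; signs are mixed in 14 genes, and the widest spreads are those of Smc4, Cenpe and Cdc14a.

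The promoters of mitotic genes are known for CCAAT boxes, bound by NF-Y, and for the cell cycle genes homology region (CHR), TTTGAA, bound by MuvB with B-Myb or FoxM1. RefSeq promoter windows (GRCm38.p6) were found for 41 of the 49 genes, and both strands of the 250 bases before the start were searched. CCAAT was found in 32 of 41 genes (78.0%), against 37.5% of 27025 genes of the table, and in 19 of 41 it occurred at least 2 times, against 11.5%. TTTGAA was found in 16 of 41 (39.0%), against 18.3%, and TTTAAA, a variant of it, in 7 of 41 (17.1%), against 13.7%. Both CCAAT and TTTGAA were found in 14 genes (34.1%), against 6.45%. Genes with several windows had more bases searched, and a match is only a run of letters. The 14 genes had a median difference of -0.093 and the other 26 measured genes with a window -0.11; the gap between them was not tested.

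The windows shown are those of the 4 measured genes with both motifs that had the smallest p in the blocked fit, written 5′ to 3′ along the gene, with CCAAT and TTTGAA in capitals, also where they lie on the other strand (ATTGG and TTCAAA). In Prc1 and Ube2c the TTTGAA match lies close before the start, at -30 and -29, preceded by CCAAT matches at -62 and at -57 and -88. In Smc2 and Ncapd2 it lies farther away, at -145 and -123. Ube2c holds 6 CCAAT matches, of which those at -186 and -183 overlap on opposite strands.
Prc1 (chr7:80294226-80294475, plus strand): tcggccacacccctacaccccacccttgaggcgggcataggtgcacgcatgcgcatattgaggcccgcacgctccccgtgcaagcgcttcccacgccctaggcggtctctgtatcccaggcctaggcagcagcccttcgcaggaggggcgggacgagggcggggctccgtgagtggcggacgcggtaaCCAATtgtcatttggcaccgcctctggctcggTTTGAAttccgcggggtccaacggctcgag
Smc2 (chr4:52438971-52439220, plus strand): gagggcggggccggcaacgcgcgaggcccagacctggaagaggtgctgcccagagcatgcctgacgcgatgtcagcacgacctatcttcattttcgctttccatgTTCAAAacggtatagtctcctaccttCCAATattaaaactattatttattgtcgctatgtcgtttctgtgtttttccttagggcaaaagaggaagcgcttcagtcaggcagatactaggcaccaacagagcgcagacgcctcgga
Ube2c (chr2:164769679-164769928, plus strand): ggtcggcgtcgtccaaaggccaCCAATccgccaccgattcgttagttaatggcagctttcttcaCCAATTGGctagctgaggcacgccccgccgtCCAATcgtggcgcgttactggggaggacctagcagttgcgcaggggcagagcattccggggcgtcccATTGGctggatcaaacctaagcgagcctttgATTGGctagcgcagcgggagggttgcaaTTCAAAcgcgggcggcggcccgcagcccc
Ncapd2 (chr6:125191587-125191836, minus strand): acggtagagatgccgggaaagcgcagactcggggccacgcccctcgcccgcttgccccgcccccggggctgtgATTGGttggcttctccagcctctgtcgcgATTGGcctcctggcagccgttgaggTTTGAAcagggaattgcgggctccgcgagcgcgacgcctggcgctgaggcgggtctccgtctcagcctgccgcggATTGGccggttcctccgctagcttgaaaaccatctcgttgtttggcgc
These windows stood beside differences of either sign, -0.37 for Prc1, -0.32 for Smc2, 0.22 for Ube2c and 0.18 for Ncapd2, and none of these differences passed.

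Further genes of the same pathway, none of them on the list above, were counted in the same way. Of 83 tested, 56 had a negative difference, with a median of -0.078, and 0 passed in limma with or without the block. By number, their medians were 0.014, -0.21 and -0.045. That order was the same for the mitotic genes above, and also for all tested genes, at -0.024, -0.079 and -0.026. At an unadjusted p of 0.05, 0 of the 83 were under it in either fit (limma), where 1.98% of all tested genes were under it on the lower and 0.860% on the higher side without the block, and 5.89% and 3.14% with it. Among 53 further kinetochore and spindle genes 41 were negative (median -0.11), and among 12 subunits of the anaphase-promoting complex 7 were (median -0.060). The 9 genes of entry control had 4 negative and a median of 0.16, and the 9 genes of MuvB and mitotic transcription had 4 negative and a median of 0.049. In that last list E2f4, a repressor partner of MuvB, had the highest difference, 0.53 (SE 0.253), from 7.09, 6.45 and 6.92 after scrambled siRNA and 7.60, 7.56 and 6.89 after mrhl siRNA, with groups that overlapped. The groups did not overlap in 6 of the 83 on the lower side, Cdc27, Cenph, Cenpi, Mis12, Spdl1 and Smc3, and in 2 on the higher side, Ccnf and Cks1b, against 6.13% and 2.30% of all tested genes. These 8 genes and E2f4 were singled out after their values were seen.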

How the data were processed

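RNA from 6 GC1-Spg cultures was measured on 1-colour Affymetrix arrays. Group, replicate number and the word biological for the replicates are taken from the titles. The authors deposited a value for each probe set and array, which was read here as log2. The submitters' processing notes name GCOS and PLIER; versions and normalization are not stated in the labels or files, and the scale was inferred from the range of values. Of 45101 rows, 64 were array controls. Gene symbols came from GEO's annotation of the array; 932 probe sets with several symbols went unused, and 9160 are unnamed here. All 48 symbols matched RefSeq by gene ID.

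The 33778 probe sets at or above the 25th percentile of mean level (3.62) were fitted with limma 3.58.1 (lmFit, eBayes; R 4.3.3), with Benjamini-Hochberg adjustment over all of them and a threshold of 0.05; the code was tested on simulated data. Named with every value are Cdk1, Plk1, Aurkb, Mad2l1, Top2a, Foxm1, Mki67, Birc5, the gene of each role with the smallest p, and genes whose groups did not overlap. The members and lists were chosen with earlier results of these data known. The number of arrays limits the precision.

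Equal numbers were compared because the groups share them. Within them, deviations from group means correlated at 0.53, 0.20 and 0.57 over all tested probe sets, each over 0.1. Over the 105 mitotic probe sets they correlated at 0.75, -0.19 and 0.73, so number 2 fell under 0.1 there and its pairing is uncertain. Alternatives were quantile normalization, other filters, the replicate block, a trended robust variance, averaged probe sets, and single arrays left out. The block with that variance, and both arrays of a number left out, were added after seeing the data.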

Additional observations from a re-analysis of the deposited data

How the results depend on the processing

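No member probe set passed an adjusted p of 0.05 in limma under any alternative run, and the replicate block, which leaves the median at -0.099, changed no call. After quantile normalization 7 genes rather than 4 had groups that did not overlap (9.10% of all genes). With the probe sets of each gene averaged, 7 rather than 14 genes were lower in every replicate number (23.6% of all genes), and Incenp, Cenpe and Smc4 turned to 0.12, 0.21 and 0.11. With a single array or both arrays of a number left out, the count of negative genes ran from 19 to 40 and the median from -0.18 to 0.020, both ends from leaving out both arrays of a number, 1 and 2. The genes whose groups did not overlap ran from 5 to 31 and those lower in every remaining number from 14 to 34. Both upper ends were reached without number 1, where the shares over all genes were 34.7% and 38.0% and both counts of 48 lay above them. Fewer arrays raise both counts by construction, and how much of the rise this made up was not tested. Over all settings with arrays left out, Birc5 ran from -0.053 to 0.10 and Incenp from -0.28 to 0.011. The other 13 of the 17 mitotic genes named with all 6 values kept their sign under every alternative run for them; none was run for single genes outside the 48. The cause of these changes was not tested. With 3 arrays per group the 95% intervals of single genes reached a median of 0.37 to either side, and those of 47 of the 48 genes held 0.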

Other observations

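Some dimmer probe sets of mitotic genes followed a pattern of their own across the arrays; they were singled out after their values were seen. One Smc4 probe set read 8.35, 9.22 and 9.62 after scrambled siRNA and 8.68, 9.41 and 11.49 after mrhl siRNA, and mrhl siRNA replicate 3 stood far above the rest. A Cenpe probe set read 3.32, 5.17 and 5.37 after scrambled siRNA and 4.15, 5.01 and 6.60 after mrhl siRNA, and a Smc2 probe set 4.97, 5.92 and 5.94 after scrambled siRNA and 4.93, 5.51 and 7.30 after mrhl siRNA. In each of the 3 the lowest control was replicate 1 and the highest of all 6 arrays was mrhl siRNA replicate 3, while the brightest probe sets of the same genes had mrhl siRNA values at or below the controls' median. None passed (limma, adjusted p = 0.965, 0.965 and 0.973).

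The other 10 of the 115 probe sets were too dim to be tested. They belonged to Aurka, Bub1b, Cenpa, Cenpf, Foxm1, Incenp, Kif23, Nek2, Racgap1 and Top2a, each of which also had a tested probe set.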
